A study of Homo sapiens with 8 samples.

Results

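The let-7 family is a group of microRNAs (miRNAs), short RNAs that lower the output of messenger RNAs carrying a matching site. Here it is the 8 miRNAs hsa-let-7a-5p, let-7b-5p, let-7c, let-7d-5p, let-7e-5p, let-7f-5p, let-7g-5p and let-7i-5p, taken by their names among the 2006 human miRNAs of an Agilent array. The array was used to ask which miRNAs change when HER2-positive breast cancer cells are given trastuzumab, an antibody against the HER2 receptor. BT474 cells (labelled ER+, HER2+ and PR+) and SKBR3 cells (labelled ER-, HER2+ and PR+, whereas the study's methods give PR-) were treated for 144 h with 6 ug/mL trastuzumab or with PBS, a saline buffer. Each of the 4 groups was labelled with 2 biological replicates, each line being an established cell line grown in culture and no other allele or agent being named in the labels. By the study's methods the lines were kept in different media, that of BT474 with bovine insulin added. Medium and line therefore cannot be told apart.

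A let-7 miRNA pairs with its targets mainly through its seed, bases 2 to 8 from the 5′ end, and miRNAs with the same seed share many predicted targets. The family is known for its rise as cells differentiate, for lowering RAS, HMGA2 and MYC messages, and for being blocked by the RNA-binding proteins LIN28A and LIN28B, which hold back the processing of its precursors. In breast tissue it is abundant in epithelial cells and is often discussed as a growth-restraining family.

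The mature sequences are shown because the members differ by so few bases that a probe for one can meet another, and because the shared seed defines the family. They are the RefSeq entries on GRCh38.p14, all 8 names having matched (the array's hsa-let-7c is hsa-let-7c-5p there), with the seed in capitals. The last line is hsa-miR-98-5p, which carries the same seed and is described with the family below.
hsa-let-7a-5p: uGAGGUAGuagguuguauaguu
hsa-let-7b-5p: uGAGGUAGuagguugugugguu
hsa-let-7c: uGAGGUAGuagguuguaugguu
hsa-let-7d-5p: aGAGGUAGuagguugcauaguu
hsa-let-7e-5p: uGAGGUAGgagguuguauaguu
hsa-let-7f-5p: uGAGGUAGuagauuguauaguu
hsa-let-7g-5p: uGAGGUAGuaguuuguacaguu
hsa-let-7i-5p: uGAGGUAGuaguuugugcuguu
hsa-miR-98-5p: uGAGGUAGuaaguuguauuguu

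All 9 are 22 bases long. Set against let-7a-5p and counted from 1 at the 5′ end, let-7c differs by A19G, let-7e-5p by U9G and let-7f-5p by G12A. The other members differ from it by 2 bases (let-7b-5p by A17G and A19G, let-7d-5p by U1A and U16C, let-7g-5p by G12U and U18C) or by 4 (let-7i-5p by G12U, A17G, U18C and A19U). Any pair of members differs by 1 to 6 bases, the most distant being let-7d-5p and let-7i-5p. How far signal on a probe came from another member was not tested.

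The 8 members come from 11 hairpins in RefSeq. On chromosome 9 the hairpins of let-7a-1 (mature bases at chr9:94175962-94175983, + strand), let-7f-1 (chr9:94176353-94176374, +) and let-7d (chr9:94178841-94178862, +) lie together inside the span of the long noncoding gene MIRLET7A1HG. The other copies of let-7a are on chromosome 11 (chr11:122146568-122146589, -, within MIR100HG, near miR-100) and on chromosome 22 (chr22:46112752-46112773, +), where let-7b follows (chr22:46113691-46113712, +), both within MIRLET7BHG. The hairpin of let-7c (chr21:16539838-16539859, +) sits beside miR-99a within MIR99AHG, and that of let-7e (chr19:51692793-51692814, +) sits between miR-99b and miR-125a within SPACA6. The other copy of let-7f lies beside miR-98 within HUWE1 (chrX:53557246-53557267, -). Both let-7g (chr3:52268336-52268357, -, within WDR82) and let-7i (chr12:62603691-62603712, +, within MIRLET7IHG) have no other hairpin within 10 kb on their strand. Because let-7a and let-7f have several copies with 1 mature sequence, their signals are sums over loci. Whether a hairpin lies in an exon or an intron of the spanning gene was not analysed here.

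The file labelled SKBR3 PBS replicate 1 held the same values as that of BT474 PBS replicate 1 in all 62344 spots, so 7 distinct arrays were used and the SKBR3 PBS group had 1 array. The arrays came from 1 slide, with PBS and trastuzumab in different rows and the lines in different columns, so slide position and group cannot be told apart. Between 201 and 218 miRNAs were detected on an SKBR3 array and between 247 and 256 on a BT474 array, and 307 were detected on at least 1 of the 7 arrays. Of 4 epithelial miRNAs, all were detected in BT474, while miR-200b-3p and miR-375 were not detected on any SKBR3 array. None of 4 stromal miRNAs was detected, 1 of 4 blood miRNAs was detected on 1 BT474 array, and neither the endothelial miR-126-3p nor any of 3 muscle miRNAs was detected in SKBR3, whereas BT474 held miR-126-3p on 3 arrays and miR-1 on 4. Both arms of miR-4728, which is encoded within the HER2 gene, were near the detection limit: the 3p arm was detected on the 2 BT474 PBS arrays and the 5p arm on the 3 SKBR3 arrays. The replicates are called biological without saying how the cultures were kept apart, so p-values measure the spread between these arrays, whose number limits the precision. Whole cultures were measured, so fewer cells with a miRNA and less of it per cell cannot be told apart.

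The 8 members were detected on every array (56 of 56 readings), and all of their 1680 spots were well above background. Each member had 2 probes of 15 spots each, and the spots of 1 probe on 1 array had a coefficient of variation of 0.0918% to 13.0%, with a median of 5.21%. The values below are the scanner's summed signal per miRNA, an intensity that depends on the probes, so members are not ranked against each other.

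let-7i-5p, which comes from a single hairpin, had summed signals of 5239 and 6516 in BT474 with PBS, 6352 and 7963 with trastuzumab, 1295 in SKBR3 with PBS and 1915 and 1775 with trastuzumab. let-7g-5p, also from a single hairpin, read 5916 and 7677 in BT474 with PBS, 7879 and 9652 with trastuzumab, 2068 in SKBR3 with PBS and 2933 and 2746 with trastuzumab. let-7c, the partner of miR-99a, read 3931 and 4721, then 5498 and 6490 in BT474, and 1473, then 1955 and 1688 in SKBR3, in the same order of groups. For these 3 miRNAs every BT474 array was above every SKBR3 array by a wide margin.

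let-7a-5p gave 17013 and 20176 in BT474 with PBS, 21270 and 22848 with trastuzumab, 10644 in SKBR3 with PBS and 14935 and 12926 with trastuzumab. let-7f-5p, its neighbour on chromosome 9, gave 15831 and 17460, then 18016 and 18750 in BT474, and 9408, then 13366 and 11868 in SKBR3. let-7d-5p, the remaining miRNA of that locus, gave 3774 and 4627, then 4733 and 5772 in BT474, and 2235, then 2760 and 2442 in SKBR3. The lines did not overlap for these miRNAs either, but the gap was smaller.

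let-7b-5p, from chromosome 22, read 10239 and 12282, then 13601 and 15797 in BT474, and 5440, then 6921 and 6148 in SKBR3. let-7e-5p, from chromosome 19, read 5308 and 6403, then 6759 and 8184 in BT474, and 3710, then 4990 and 4437 in SKBR3. Both were higher on all 4 BT474 arrays before normalization, so the lines did not overlap for any of the 8 members, against 57.2% of the 173 miRNAs detected on all 7 arrays.

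**Figure D1:**
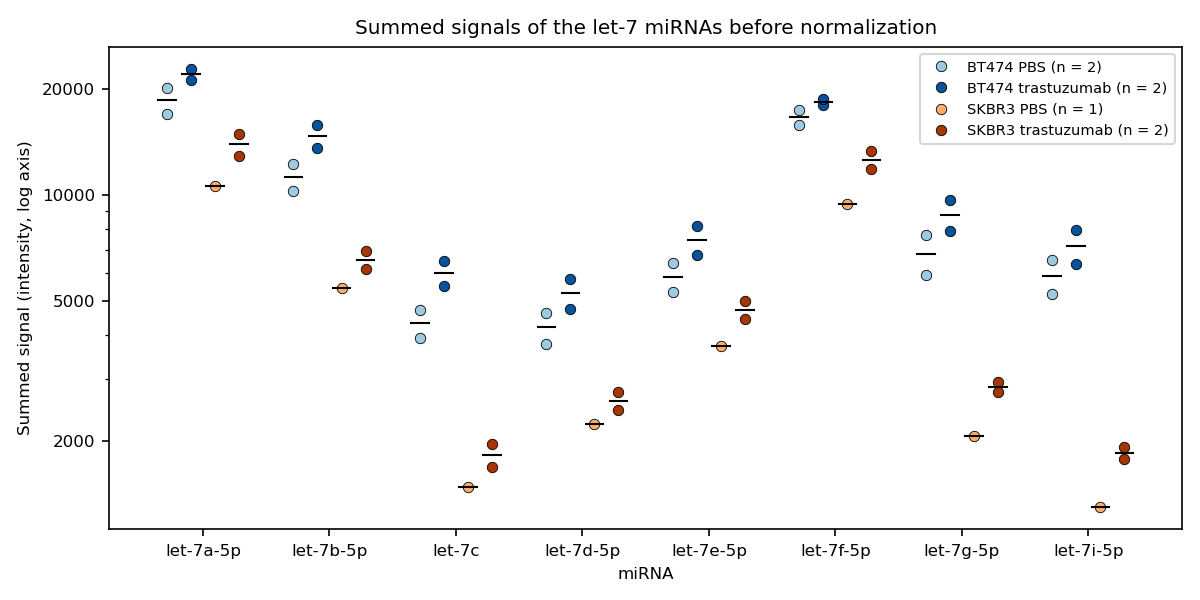
Summed signal (intensity, log axis) of each let-7 miRNA on the 7 distinct arrays before normalization; points are arrays, coloured by line and treatment, and short lines are group means. For let-7i-5p the BT474 arrays read 5239 to 7963 and the SKBR3 arrays 1295 to 1915, while for let-7f-5p the lines lie closer, at 15831 to 18750 and 9408 to 13366.

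These raw differences include a shift of the arrays as a whole. Over the 173 miRNAs detected on all 7 arrays, the median log2 difference between BT474 and SKBR3 before normalization was 0.71, and the members lay from 0.66 (let-7e-5p) to 2.06 (let-7i-5p). The 75th percentile of the detected signals was 1451 to 2028 on the BT474 arrays and 819 to 1132 on the SKBR3 arrays. Within each line the arrays also differed in this way, with median log2 differences of trastuzumab over PBS of 0.22 in BT474 and 0.36 in SKBR3. The comparisons below therefore use quantile normalization of the summed signals, which gives each array the same set of values and is the normalization named in the methods. Signals under 10 were set to 10 before log2 was taken. Scaling by each array's 75th percentile, taken over the 173 miRNAs detected on all 7 arrays, is given beside it wherever it changes a direction. That percentile differs from the one above, which covers every miRNA detected on an array.

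After normalization the levels of the members differed between the lines in both directions. BT474 had more let-7i-5p, let-7g-5p and let-7c than SKBR3 and less let-7e-5p, and let-7b-5p, let-7d-5p and let-7f-5p did not pass the test. In limma's fit of the 7 arrays with Benjamini-Hochberg adjustment over 305 miRNAs, 5 of 8 members passed an adjusted p of 0.05, 4 of them higher and 1 lower in BT474. The lines differed widely in general: 68.5% of all tested miRNAs passed the same threshold, 33.4% higher and 35.1% lower, so the members' count was near the background. With the replicate number as a block it was also 5 of 8, against 64.3%. The arrays of the lines did not overlap for 5 of 8 members, against 57.4% of all tested miRNAs. The median log2 difference was 0.14 over the members and 0 over all tested miRNAs.

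let-7i-5p had normalized log2 levels of 12.22 and 12.22 in BT474 with PBS, 12.38 and 12.43 with trastuzumab, 11.13 in SKBR3 with PBS and 11.40 and 11.49 with trastuzumab. It was 2.03-fold higher in BT474 (log2 difference 1.02, standard error 0.04, limma adjusted p = 0.000157), the only member beyond 2-fold, where 46.2% of all tested miRNAs had an unadjusted p under 0.05 and a fold above 2. The difference was 2.13-fold among the PBS arrays alone and 1.94-fold among the trastuzumab arrays alone. let-7g-5p was 1.52-fold higher in BT474 (log2 0.61, standard error 0.06, limma adjusted p = 0.00217), and let-7c was 1.48-fold higher (log2 0.57, standard error 0.08, limma adjusted p = 0.00441). Under 75th percentile scaling the log2 differences were 1.15, 0.75 and 0.73 for let-7i-5p, let-7g-5p and let-7c, where the median of all tested miRNAs was 0.27.

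let-7e-5p ran the other way. Its normalized log2 levels were 12.27 and 12.15 in BT474 with PBS and 12.46 and 12.46 with trastuzumab, against 12.80 in SKBR3 with PBS and 12.85 and 12.80 with trastuzumab. It was 1.39-fold lower in BT474 (log2 difference -0.47, standard error 0.05, limma adjusted p = 0.00215), and -0.25 under 75th percentile scaling (limma adjusted p = 0.0288). Before normalization the same miRNA was higher in BT474 by 0.66, or -0.05 relative to the median shift of the detected miRNAs, so its direction is relative to the other miRNAs. The line difference in PBS alone was 0.666-fold and in trastuzumab alone 0.779-fold.

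let-7a-5p passed the test with a small difference of 0.21 (limma adjusted p = 0.00541), but its direction was not fixed. It held 1 rank on all BT474 arrays and another on all SKBR3 arrays, so quantile normalization gave it 14.15 on each BT474 array and 13.94 on each SKBR3 array. Under 75th percentile scaling the difference was -0.17 (limma adjusted p = 0.153), and without its brighter probe, which was saturated in BT474, it was -0.16 (limma adjusted p = 0.0122). The differences of let-7b-5p (0.06), let-7d-5p (-0.05, and 0.05 under 75th percentile scaling) and let-7f-5p (-0.01) were within the spread of the arrays, with limma adjusted p of 0.463, 0.413 and 0.887. Only without BT474 trastuzumab replicate 1 did let-7d-5p pass among the fits with 1 array left out (-0.08, limma adjusted p = 0.0405). The 3 members of the chromosome 9 cluster, let-7a-5p, let-7f-5p and let-7d-5p, lay between -0.22 and 0.21 under these 2 scalings.

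**Figure D2:**
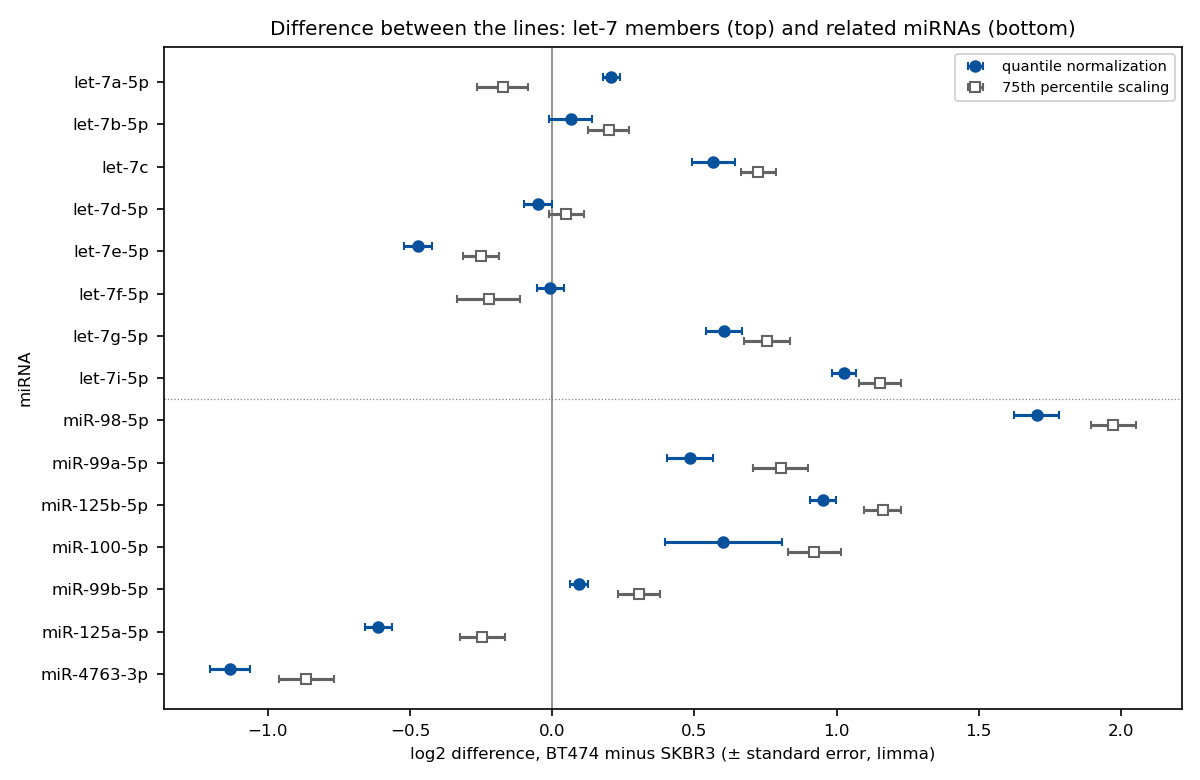
log2 difference, BT474 minus SKBR3, of the 8 let-7 miRNAs (above the dotted line) and 7 related miRNAs (below it), with limma standard errors over the 7 arrays; filled circles are quantile normalized and open squares scaled by the 75th percentile. let-7i-5p (1.02) and hsa-miR-98-5p (1.70) stand furthest right among same-seed miRNAs, let-7e-5p (-0.47) and hsa-miR-125a-5p (-0.61) lie left of 0, and let-7a-5p changes side between the scalings.

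The 2 probes of a member give a check within each array. Fitted separately, they had the same sign of the line difference in 6 of 8 members, the exceptions being let-7b-5p (-0.14 and 0.04) and let-7f-5p (-0.05 and 0.04), whose differences were small. The 6 include let-7a-5p, but both of its probes were below 0 (-0.25 and -0.05). That sign is opposite to the 0.21 of its summed signal. The probes gave 0.92 and 0.85 for let-7i-5p, 0.57 and 0.55 for let-7g-5p, 0.45 and 0.76 for let-7c and -0.40 and -0.58 for let-7e-5p. For these 4 members the line difference had 1 sign in both probes. For the treatment the probes had the same sign in 4 of 8 members in BT474 and in 5 of 8 in SKBR3. In BT474 the probes gave -0.16 and 0.09 for let-7i-5p and -0.07 and 0.09 for let-7e-5p, so the sign of these changes differed within a member.

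Of the 16 probes, 2 reached the scanner's ceiling in BT474. The brighter let-7a-5p probe had 0 and 7 of its 15 spots saturated with PBS and 7 and 15 with trastuzumab. The brighter let-7f-5p probe had 2 and 15 saturated with PBS and 15 and 15 with trastuzumab. No spot of a member was saturated in SKBR3, so the BT474 levels of let-7a-5p and let-7f-5p are held down by the ceiling and their treatment and line differences are limited by it.

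**Figure D3:**
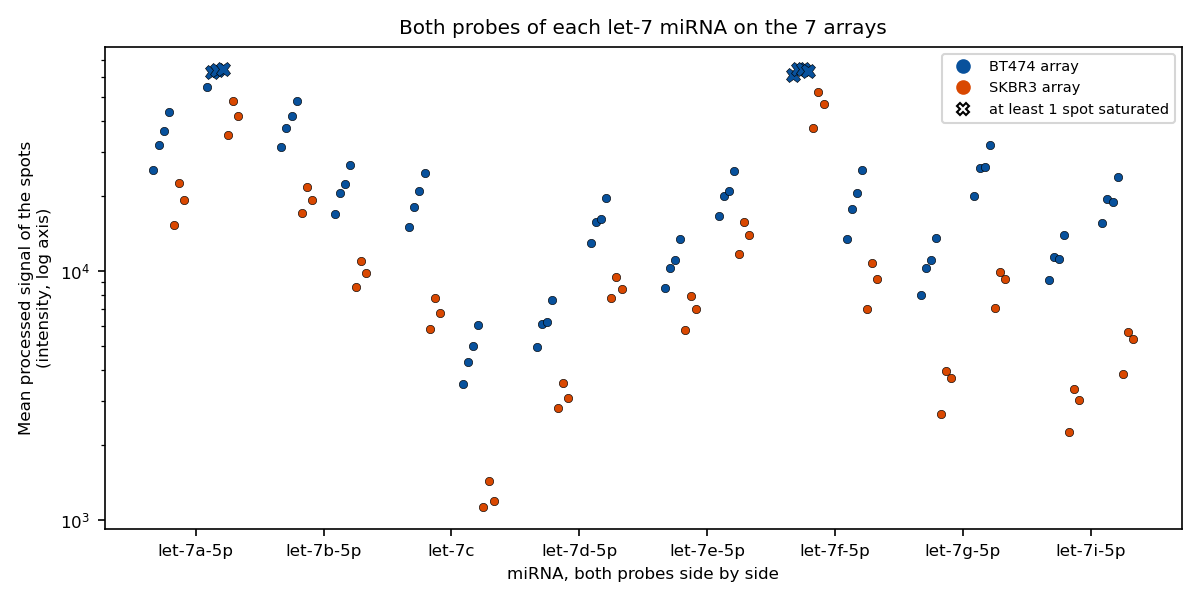
Mean processed signal (intensity, log axis) of the 2 probes of each let-7 miRNA, side by side, on the 4 BT474 arrays (blue) and the 3 SKBR3 arrays (orange); crosses mark arrays on which at least 1 of the 15 spots was saturated. Crosses occur on 3 BT474 arrays for the brighter let-7a-5p probe and on all 4 for the brighter let-7f-5p probe, where the points flatten near the top.

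No member passed the threshold for trastuzumab against PBS in BT474. In the fit of the 4 BT474 arrays (285 miRNAs tested), 0 of 8 members passed an adjusted p of 0.05, against 14.4% of all tested miRNAs. That share rests on a fit without the replicate number: with the number as a block, 0 of 8 members and 0% of all tested miRNAs passed. At an unadjusted p under 0.05, 3 members were counted by limma: let-7c, let-7e-5p and let-7g-5p. With the block their unadjusted limma p were 0.061, 0.101 and 0.140. The methods' t-test, run here without the random variance model that the study names, counted 2, let-7g-5p and let-7i-5p. Of all tested miRNAs, 36.5% were under this p in limma and 26.7% in the t-test. No member also exceeded 2-fold, the joint threshold named in the methods, which 14% of all miRNAs did in limma. The trastuzumab and PBS arrays did not overlap for 5 of 8 members, against 58.2% of all tested miRNAs.

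let-7c had normalized log2 levels of 11.85 and 11.77 with PBS and 12.27 and 12.06 with trastuzumab, a log2 difference of 0.35 with a standard error of 0.11 (limma adjusted p = 0.133). Both treated arrays lay above both PBS arrays. The other differences were 0.25 for let-7e-5p, 0.22 for let-7d-5p, 0.19 for let-7g-5p, 0.18 for let-7i-5p, 0.15 for let-7b-5p and 0.09 for let-7f-5p. let-7a-5p, fixed at 1 rank, had a difference of 0. The direction rested on the scaling: under 75th percentile scaling 7 of 8 members were below 0, from -0.31 for let-7f-5p to -0.07 for let-7b-5p, and let-7c was at 0.02, while the median of all tested miRNAs was -0.22. When single arrays were left out of the fit of all groups, let-7e-5p passed without BT474 PBS replicate 1 (0.32, limma adjusted p = 0.0226), let-7d-5p without BT474 trastuzumab replicate 1 (0.16, 0.0484), and let-7c and let-7d-5p without BT474 trastuzumab replicate 2 (0.45 and 0.28, 0.0412 and 0.0267). With the saturated probes left out, let-7a-5p gave 0.22 and let-7f-5p 0.33 (limma adjusted p = 0.102 and 0.0916).

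In SKBR3 the members again did not pass. With 1 PBS array, which is assumed to vary like the treated arrays, 0 of 8 members passed limma's adjusted p of 0.05 among 227 miRNAs, and 0 were under an unadjusted p of 0.05 by limma or by the methods' t-test. Of all tested miRNAs 6.61% passed the adjusted threshold and 30% the unadjusted one in limma, while 9.69% were under it in the t-test. let-7i-5p read 11.13 with PBS and 11.40 and 11.49 with trastuzumab, a log2 difference of 0.31 (standard error 0.07, limma adjusted p = 0.202). let-7g-5p read 11.82 with PBS and 11.96 and 12.15 with trastuzumab, a difference of 0.24 (standard error 0.13, limma adjusted p = 0.455). Both treated arrays were above the single PBS array for these miRNAs. The groups did not overlap for 4 of 8 members, against 70.9% of all tested miRNAs.

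The remaining SKBR3 differences of the summed signals were small. let-7d-5p had -0.13 and let-7b-5p -0.07, both turning positive under 75th percentile scaling (0.04 and 0.08), let-7c had 0.05 and let-7e-5p 0.03. Fitted separately, both let-7c probes were below 0 (-0.05 and -0.30), opposite in sign to its summed signal. let-7a-5p and let-7f-5p kept their ranks on all 3 arrays and were at 0. Under 75th percentile scaling all 8 members were positive, from 0.04 to 0.33, with a median of all tested miRNAs of 0.21.

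**Figure D4:**
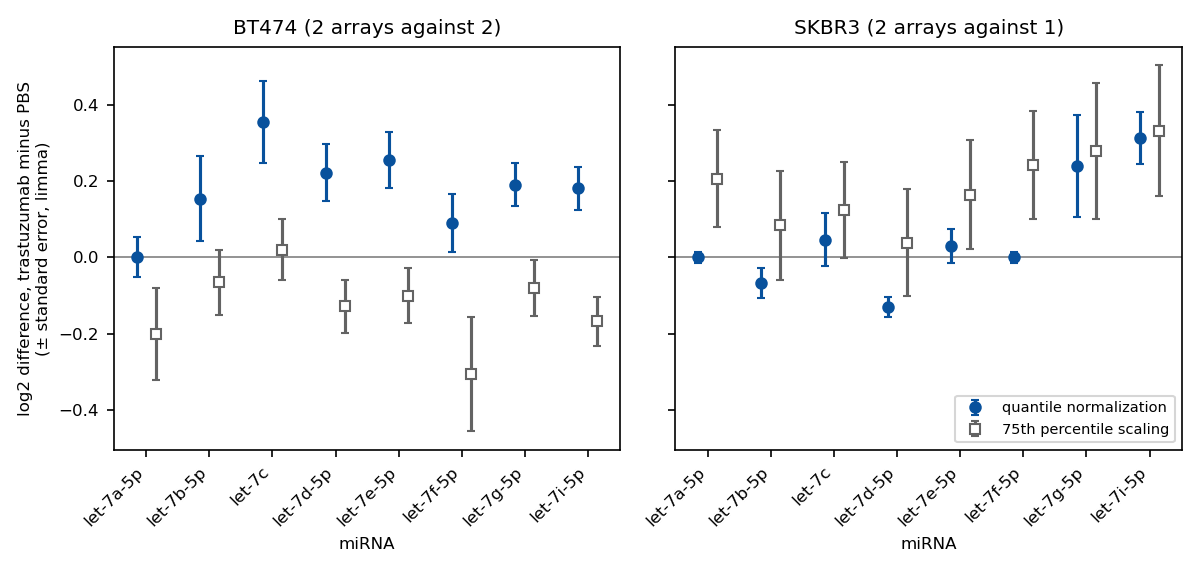
log2 difference, trastuzumab minus PBS, of the 8 let-7 miRNAs in BT474 (left, 2 arrays against 2) and SKBR3 (right, 2 arrays against 1), with limma standard errors; filled circles are quantile normalized and open squares scaled by the 75th percentile. In BT474 the circles lie between 0 and 0.35 and most squares below 0, and in SKBR3 the circles run from -0.13 to 0.31 and the squares from 0.04 to 0.33.

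The change in BT474 was set against the change in SKBR3 in the fit of all 4 groups. No member passed (0 of 8, against 16.1% of 305 tested miRNAs, by limma with adjusted p under 0.05), and 1 was under an unadjusted p of 0.05, against 30.2% of all. With the replicate number as a block, 0 of 8 members passed, against 7.21% of all. The member under the unadjusted p in the fit without the block was let-7d-5p. Its change was greater in BT474 by 0.35 log2 (standard error 0.10, limma adjusted p = 0.110). It passed without BT474 trastuzumab replicate 1 (0.28, limma adjusted p = 0.0477) or replicate 2 (0.39, 0.0308), and let-7e-5p passed without BT474 PBS replicate 1 (0.30, 0.0422). The members ranged from -0.13 for let-7i-5p to 0.35 for let-7d-5p, and under 75th percentile scaling all 8 were below 0, where the median of all tested miRNAs was -0.39.

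The other arms of the let-7 hairpins were below detection. None of the 9 passenger arms on the array that belong to let-7 or miR-98 hairpins was detected on any of the 7 arrays, whereas the guide arms of all 8 members were. Of the 3 other array miRNAs with the seed of let-7a-5p, hsa-miR-4458 and hsa-miR-4500 were not detected on any array and hsa-miR-98-5p was detected on all 7.

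hsa-miR-98-5p, whose hairpin lies beside that of let-7f-2 on chromosome X, had summed signals of 1144 and 1642 in BT474 with PBS and 1533 and 1810 with trastuzumab, against 187 in SKBR3 with PBS and 252 and 202 with trastuzumab. It was 3.26-fold higher in BT474 (log2 1.70, standard error 0.08, limma adjusted p = 0.000209). let-7f-5p, which shares this locus but also comes from chromosome 9, differed by -0.01. Its brighter probe was saturated in BT474, and without that probe the difference was 0.13 (limma adjusted p = 0.0842). The treatment difference of hsa-miR-98-5p was -0.0048 in BT474 and -0.21 in SKBR3, neither past the threshold (limma adjusted p = 1 and 0.155), and in SKBR3 it turned to 0.09 under 75th percentile scaling (limma adjusted p = 0.726).

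The miRNAs whose hairpins neighbour let-7 hairpins, or belong to the related miR-99/100 and miR-125 families, were also compared between the lines. Of 11 such miRNAs on the array, 7 were detected on at least 1 array and 6 on all 7. Together with hsa-miR-98-5p, 6 of 8 passed limma's adjusted p of 0.05 for the line difference, against 68.5% of all tested miRNAs. This count was near the background. In the 2 treatment comparisons 0 of 8 passed.

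At the chromosome 21 locus, let-7c (0.57) and its neighbour hsa-miR-99a-5p were both higher in BT474. hsa-miR-99a-5p read 1649 and 2055, then 2064 and 2979 in BT474, and 613, then 713 and 676 in SKBR3, a log2 difference of 0.48 (limma adjusted p = 0.00889). hsa-miR-125b-5p, whose hairpin copies lie farther along the same chromosomes 21 and 11, was 1.94-fold higher in BT474 (log2 0.95, limma adjusted p = 0.000218). At the chromosome 11 locus, hsa-miR-100-5p was higher in BT474 by 0.60 with a standard error of 0.20 and did not pass (limma adjusted p = 0.0637), while under 75th percentile scaling it passed at 0.92 (limma adjusted p = 0.00192). It also passed when any 1 of the 3 SKBR3 arrays was left out: 0.94 without PBS replicate 2, 0.44 without trastuzumab replicate 1 and 0.72 without trastuzumab replicate 2 (limma adjusted p = 0.0248, 0.0185 and 0.00731).

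At the chromosome 19 locus, let-7e-5p (-0.47) and hsa-miR-125a-5p (-0.61, limma adjusted p = 0.000818) were both lower in BT474 after normalization. hsa-miR-99b-5p was not (0.09, limma adjusted p = 0.0643). Before normalization hsa-miR-125a-5p read 910 and 1054, then 1284 and 1476 in BT474, and 661, then 864 and 771 in SKBR3. It was thus higher on all 4 BT474 arrays, so its direction, like that of let-7e-5p, is relative to the other miRNAs. Under 75th percentile scaling hsa-miR-125a-5p was at -0.25 (limma adjusted p = 0.0514) and hsa-miR-99b-5p at 0.30 (limma adjusted p = 0.0252). With any 1 of the 4 BT474 arrays left out, hsa-miR-99b-5p passed at 0.08 to 0.11 (limma adjusted p = 0.0316 to 0.0490). hsa-miR-125a-3p, the other arm of the miR-125a hairpin, was detected on all 3 SKBR3 arrays at summed signals of 27.4, 44.5 and 44.8 and on 1 of 4 BT474 arrays at 36.3. It is counted among the 6 above (limma adjusted p = 0.0121) but did not pass without BT474 PBS replicate 1, SKBR3 PBS replicate 2 or SKBR3 trastuzumab replicate 2 (limma adjusted p = 0.0565, 0.0504 and 0.0625). At the chromosome 22 locus, hsa-miR-4763-3p was lower in BT474 after normalization (log2 difference -1.13, limma adjusted p = 0.000473), whereas let-7b-5p beside it differed by 0.06. The summed signals of hsa-miR-4763-3p were 151 and 189, then 159 and 173 in BT474, and 154, then 178 and 165 in SKBR3. These signals overlap between the lines, so its difference is relative to the other miRNAs. Under 75th percentile scaling hsa-miR-4763-3p was at -0.87.

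The 3 miRNAs whose profile was most like the mean of the members over the 7 arrays were hsa-miR-23a-3p, hsa-miR-27b-3p and hsa-miR-23b-3p. Likeness was the root mean square distance of log2 profiles, each centred on its own mean, and it was 0.0531, 0.0581 and 0.0846, against a median of 0.527 over 158 candidates. The members' own distances to their mean ran from 0.0721 for let-7a-5p to 0.376 for let-7i-5p. These 3 miRNAs lay closer to the mean than 7 of the 8 members did.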

How the data were processed

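RNA of 8 labelled samples was hybridised by the authors to 1-colour Agilent human miRNA arrays (miRBase release 19 design), read with Agilent Feature Extraction 11.5.1.1. The deposited scanner files hold intensity values, background-subtracted per spot and summed per miRNA over its probes, with detection flags (undetected miRNAs are listed at 0.1). The deposited value table holds log2 values per probe that the authors quantile normalized, and was used as an alternative only. The SKBR3 PBS replicate 1 file, a copy of a BT474 file, was left out. Summed signals of the 7 distinct arrays were quantile normalized, floored at 10 and put on a log2 scale. miRNAs above the floor on at least 1 array of a fit were tested with limma 3.58.1 in R 4.3.3 (lmFit, eBayes, Benjamini-Hochberg adjustment, threshold 0.05), in place of the class comparison tool of the methods. Treatment was fitted within each line, and the line difference and the interaction in 1 fit of 4 groups. The scripts were tested on simulated data.

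Members, related lists and the rule for named miRNAs (all members, passenger arms, same-seed miRNAs, hairpin partners within 10 kb, the miR-99/100 and miR-125 5p arms by name, 3 most alike profiles) were chosen with earlier results of these data known. Alternatives covered scaling, floor, detection filter, probe summary, background correction (normexp, offset 50), deposited values, all 8 labelled arrays, single arrays left out, a joint fit, the methods' t-test and the replicate block. The methods' t-test was run as an ordinary t-test on each miRNA's own spread, without the random variance model that the study names. Leaving out saturated probes was added after seeing the data. Tables were made with Python 3.11.15 and pandas 2.3.3. Replicate numbers were checked for pairing: deviations of same-numbered arrays from their group means correlated at 0.297, 0.148 and 0.119 over 173 miRNAs, and within each line a number was also a slide column. The blocked fit is therefore given beside results that it changes.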

Additional observations from a re-analysis of the deposited data

Results flagged for a closer look

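One related miRNA differed between the lines in its treatment change by the test of that difference. hsa-miR-125b-5p was higher with trastuzumab in BT474 by 0.21 and lower in SKBR3 by 0.37 on the log2 scale (-0.37), a difference of 0.58 with a standard error of 0.09 (limma adjusted p = 0.0290). Neither change alone passed within its line (limma adjusted p = 0.136 and 0.151). Under 75th percentile scaling the difference was 0.14 (limma adjusted p = 0.479), and with the replicate number as a block it was 0.59 (limma adjusted p = 0.0993). The SKBR3 side rests on 1 PBS array. Before normalization hsa-miR-125b-5p read 357 on that array and 412 and 368 with trastuzumab, so its lower SKBR3 level is relative to the other miRNAs. In BT474 it read 1152 and 1457 with PBS and 1712 and 2085 with trastuzumab. Under 75th percentile scaling its changes were 0.09 in BT474 and -0.05 in SKBR3.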

How the results depend on the processing

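The line differences of let-7i-5p, let-7g-5p, let-7c and let-7e-5p kept their direction in all 15 alternatives in which they were computed and passed in 14. The exception was the use of all 8 labelled arrays, which puts a copied BT474 array among the SKBR3 arrays: there 0 members and 6 miRNAs in all were called between the lines, and let-7i-5p had 0.77 (limma adjusted p = 0.0826).

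The count of all miRNAs called in BT474 (41 at first) was 0 with the mean processed signal of the spots, 90 with normexp, 0 with the deposited log2 values, 74 in 1 fit of the 4 groups and 3 by the methods' t-test. That of SKBR3 (15) was 0 under 75th percentile scaling, 0 with detection on every array, 0 with the mean processed signal, 50 with normexp, 0 with the deposited values, 3 with all 8 labelled arrays, 36 in 1 fit of the 4 groups and 0 by the methods' t-test. Between the lines (209) it was 378 with the mean processed signal and 379 with normexp, and for the interaction (49) it was 23 with detection on every array, 0 with the deposited values and 5 with all 8 labelled arrays. The cause was not tested.

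Directions turned as follows. In BT474 under 75th percentile scaling let-7b-5p was at -0.065, let-7d-5p at -0.13, let-7e-5p at -0.10, let-7f-5p at -0.31, let-7g-5p at -0.080 and let-7i-5p at -0.17, and let-7i-5p was at -0.035 with normexp and -0.0097 with the deposited values. In SKBR3 let-7b-5p was at 0.084 and let-7d-5p at 0.038 under 75th percentile scaling, let-7b-5p at 0.0079 and let-7c at -0.14 with normexp, let-7c at -0.15 and let-7e-5p at -0.0020 with the deposited values, and let-7c at -0.18, let-7g-5p at -0.065 and let-7i-5p at -0.24 with all 8 labelled arrays. Between the lines let-7a-5p was at -0.17 and let-7d-5p at 0.049 under 75th percentile scaling, let-7f-5p at 0.014 with the mean processed signal, let-7a-5p at -0.23, let-7b-5p at -0.060 and let-7f-5p at 0.038 with normexp, let-7d-5p at 0.0062 and let-7f-5p at 0.017 with all 8 labelled arrays, and let-7a-5p at -0.16, let-7b-5p at -0.0087 and let-7f-5p at 0.13 without saturated probes. In the interaction let-7d-5p was at -0.17 under 75th percentile scaling and let-7i-5p at 0.42 with all 8 labelled arrays.

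Leaving out 1 array at a time gave 0 to 2 members and 44 to 80 miRNAs called in BT474, 0 members and 16 to 42 miRNAs in SKBR3, 5 to 6 members and 187 to 206 miRNAs between the lines, and 0 to 1 members and 29 to 74 miRNAs in the interaction. Between the lines let-7d-5p ran from -0.084 to 0.13 and let-7f-5p from -0.040 to 0.032.

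With the replicate number as a block, 0 miRNAs were called in BT474, 196 between the lines and 22 in the interaction. Members called stayed at 0, 5 and 0 in these comparisons. SKBR3 had no paired fit, its distinct arrays sharing only number 2. The deposited values were not run between the lines, and the methods do not say whether the lines were normalized together. No SKBR3 change could be computed without its single PBS array. Saturation limits let-7a-5p and let-7f-5p in BT474.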
